A study of Beta vulgaris subsp. vulgaris with 30 samples.

Results

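The genes described here are sut1 (Bevul.1G212200), a sucrose transporter, SBSS1 (Bevul.7G102400), a sucrose synthase, and agpS1 (Bevul.1G154800), the small subunit of ADP-glucose pyrophosphorylase. They were picked by identifier as the named genes of sucrose transport, sucrose cleavage and starch synthesis, and are 3 of the 21587 genes in the count table. Messenger RNA was sequenced from shoots of Beta vulgaris subsp. vulgaris (sugar beet) in 30 libraries, 6 in each of 5 groups. The labels name no cultivar, line or transgene beyond the subspecies, and all groups grew in pots of soil at 22 °C with 16 h of light and 8 h of darkness. One group was taken before pretreatment, one after 3 days with water and one after 3 days with ethanol. The remaining pair had the water or the ethanol pretreatment and then freezing temperature, which the group names give with 2 h. Every later group was also older by at least the 3 days. In comparisons with the group before pretreatment, pretreatment and growth therefore cannot be told apart. According to the series description, seedlings were 7 days old at the start, the ethanol solution was 80 mM and the incubator was held overnight between -2.1 and -3.5 °C. The protocols attached to the samples speak of Arabidopsis instead, with an age of 14 days, a 20 mM solution given over 6 days and a temperature of -4.0 °C. The beet description is used here because the genes lie on beet chromosomes. From when the 2 h were counted is not said. Nothing in the labels says whether the 6 libraries of a group came from separate pots, and the p-values therefore rest on a spread among libraries that may be technical. The labelled tissue was not checked against marker genes, which carry no names in the tables used here.

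Sucrose is the form in which sugar beet exports carbon from its leaves and stores it in the root. Sucrose transporters of the SUT family carry sucrose together with protons across the plasma membrane and load the phloem, and sucrose synthase cleaves sucrose reversibly into fructose and UDP-glucose. ADP-glucose pyrophosphorylase makes the ADP-glucose from which leaves build starch in the light, and its small subunit is needed for activity. Plants in the cold commonly accumulate soluble sugars, and leaf starch is made and broken down in a daily cycle.

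On assembly EL10.2, sut1 lies on chromosome 1 from 63442034 to 63447332 and agpS1 on the same chromosome from 56191462 to 56195698, 7.25 Mb apart. SBSS1 lies on chromosome 7 from 32013232 to 32027153. All 3 are on the minus strand and none overlaps another gene of the table, with the nearest neighbour 1598 bp from sut1, 33563 bp from SBSS1 and 4633 bp from agpS1. The names come from RefSeq models of the same assembly, each matched by position to a single gene. Libraries were primed on the poly(A) tail, so reads gather at transcript ends. At the 3′ end the RefSeq model reached 268 bp past the table's model for sut1 and 154 bp past it for agpS1, whereas for SBSS1 the table's model reached 222 bp past RefSeq. Reads that fell beyond a model's end are not in its count. Close relatives of the 3 genes, and how reads shared with them were counted, were not analysed here. The length column equals the gene span, introns included, so levels are not compared between genes.

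Total counts per library ran from 3379082 to 17868082. Levels are CPM, read counts relative to library size, scaled by the trimmed mean of M-values (TMM). In whole shoots, fewer cells of a type and less RNA per cell cannot be told apart. All 3 genes had reads in every library, between 72 and 389 for sut1, 81 and 619 for SBSS1 and 38 and 388 for agpS1. At the lowest counts the counting error alone was 11.8%, 11.1% and 16.2% of the value. The spread between libraries of a group, as the SD over the mean, was 15.6 to 45.2% for sut1, 22.3 to 35.7% for SBSS1 and 18.3 to 39.8% for agpS1. On principal components of all tested genes, ethanol replicate 4, which has the lowest total, lay alone on component 2 at 154.4, and water replicate 3 lay alone on component 4 at 121.3. Water and freezing replicate 6 lay at -13.8 on component 1, nearer to the unfrozen libraries than the other 11 frozen ones, at -35.9 or below. TMM factors were 0.980 to 1.17 in the 12 frozen libraries and 0.833 to 1.05 in the 18 others.

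Of the 3 genes, agpS1 changed across the groups, and sut1 and SBSS1 did not pass any of the comparisons fitted across all genes. By group means, agpS1 was lowest before pretreatment, intermediate after water or ethanol, and highest in frozen shoots. When both freezing comparisons were averaged it rose 1.495-fold, which passed the test. Its rises over pretreatment and in each freezing comparison alone did not pass, with adjusted p from 0.0694 to 0.518 by edgeR. SBSS1 had its highest mean after ethanol and freezing, and sut1 its highest mean before pretreatment. In the test of any difference among the 5 groups, agpS1 had an adjusted p of 0.00237 in the quasi-likelihood test of edgeR, adjusted by Benjamini-Hochberg over 14128 genes. In that test 20.1% of all genes tested were called, against 1 of these 3, and with so few genes that count says little about them as a set. The adjusted p was 0.572 for sut1 and 0.323 for SBSS1.

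**Figure D1:**
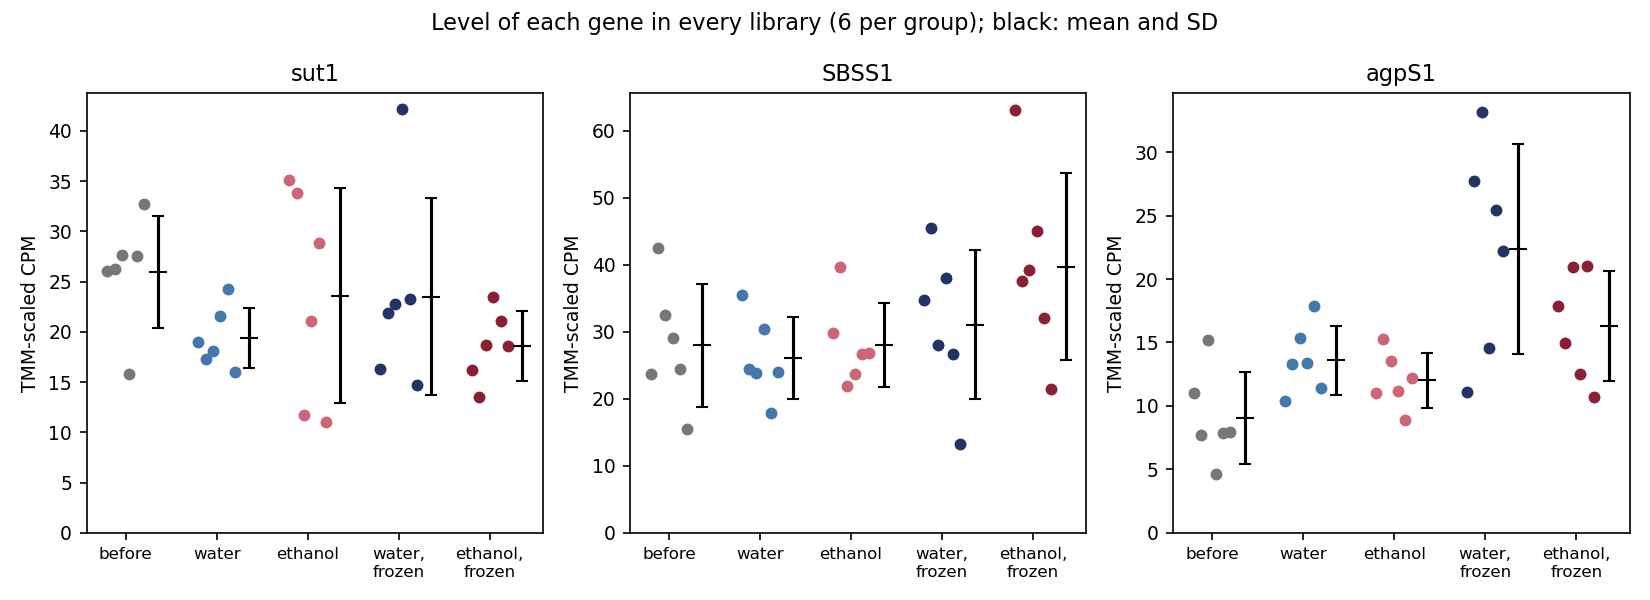
Level of sut1, SBSS1 and agpS1 in TMM-scaled CPM (vertical axis, from 0) in each of the 30 libraries, by group (horizontal axis). Points are libraries in replicate order, and black marks are the mean and SD of 6. agpS1 shifts upwards from a mean of 9.07 CPM before pretreatment to 22.4 CPM after water and freezing, though the ranges of all its groups overlap. The groups of sut1 and SBSS1 also overlap widely.

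The transporter gene sut1 had its highest mean before pretreatment, 26.0 ± 5.56 CPM (SD, n = 6). There its libraries ran from 15.8 through a median of 26.9 to 32.7 CPM. After water it stood at 19.4 ± 3.03 CPM, with a lowest value of 16.0, a median of 18.6 and a highest value of 24.3. Of the 6 libraries taken before pretreatment, 5 lay above all 6 water libraries and 1 lay below all of them. The log2 change was -0.42 ± 0.26 (SE), with an adjusted p of 0.504 by edgeR, so the difference did not pass the test across all genes, of which 3.09% were called. The 95% interval reached from -0.94 to 0.10.

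After ethanol the sut1 libraries were split. They held 35.1, 33.8 and 28.9 CPM in replicates 1, 2 and 5, 21.1 CPM in replicate 4, and 11.7 and 11.1 CPM in replicates 3 and 6, a 3.17-fold range within one group. The mean was 23.6 ± 10.7 CPM. Against water the log2 change was 0.28 ± 0.26 (adjusted p = 1 by edgeR), with an interval from -0.23 to 0.80, which includes 1.74-fold higher.

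In frozen shoots sut1 ran from 14.7 through 22.3 to 42.2 CPM after water and from 13.5 through 18.6 to 23.4 CPM after ethanol. A single library, water and freezing replicate 4, lay far above the others, the next being 23.2 CPM. The group means were 23.5 ± 9.81 and 18.6 ± 3.50 CPM. The freezing change was 0.27 ± 0.26 after water (adjusted p = 0.635 by edgeR) and -0.34 ± 0.26 after ethanol (adjusted p = 0.486). Without replicate 4 the change after water was 0.03. The freezing responses after the pretreatments differed by -0.62 ± 0.36 on the log2 scale, with an interval from -1.35 to 0.11 and an adjusted p of 1 by edgeR. This difference was -0.37 without the same replicate 4. Averaged over both, freezing gave -0.04 ± 0.18, with the interval from -0.40 to 0.33. With libraries scaled to their totals only, the sign of this average turned, to 0.14.

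Ordered by mean, sut1 ran from ethanol and freezing through water, water and freezing, and ethanol to before pretreatment. No neighbours in this order differed beyond their spread, with p from 0.455 to 0.898 in 2-sided exact permutation tests of mean log2 CPM over 6 against 6 libraries. Of the 10 pairs of groups, the lowest p was 0.0368, for before pretreatment against ethanol and freezing. Adjusted over the 10 pairs it was 0.249, again in an exact permutation test.

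SBSS1, whose product can feed sucrose carbon into cell wall and starch synthesis, was much alike in the 3 unfrozen groups. It held 28.0 ± 9.15 CPM before pretreatment, from 15.5 through 26.8 to 42.5. With water it stood at 26.0 ± 6.11 CPM, from 17.8 through 24.3 to 35.5, and with ethanol at 28.1 ± 6.27 CPM, from 21.9 through 26.7 to 39.6. The ranges overlapped almost wholly. The log2 change over the water pretreatment was -0.10 ± 0.25 and over the ethanol pretreatment 0.01 ± 0.25, with adjusted p of 0.932 and 0.995 by edgeR. The intervals, -0.60 to 0.40 and -0.49 to 0.51, correspond to 0.659 to 1.32 times and 0.712 to 1.43 times the level before pretreatment.

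Freezing went with higher SBSS1 means that did not pass the test. After water and freezing the libraries ran from 13.3 through 31.4 to 45.5 CPM, mean 31.0 ± 11.1. After ethanol and freezing they ran from 21.4 through 38.4 to 63.1 CPM, mean 39.7 ± 13.9. The lowest of the 30 values was water and freezing replicate 6 and the highest was ethanol and freezing replicate 1, so both extremes were frozen libraries. The log2 change was 0.25 ± 0.25 after water (adjusted p = 0.654 by edgeR) and 0.50 ± 0.25 after ethanol (adjusted p = 0.226).

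Averaged over both pretreatments, freezing changed SBSS1 by 0.37 ± 0.17 on the log2 scale, with an interval from 0.02 to 0.73. Of the 12 frozen libraries 10 lay above the median of the 12 unfrozen ones that had a pretreatment, and 3 lay above all of them. The unadjusted p was 0.0386 and the adjusted p 0.135 by edgeR. In this comparison 28.7% of all tested genes had a p as low or lower. Without water and freezing replicate 6, which held the lowest SBSS1 value, the adjusted p was 0.0419 by edgeR. Of the 24 fits that left out 1 compared library only this 1 passed, and the adjusted p reached 0.288. With libraries scaled to their totals only it was 0.0204, a scaling under which the median of all genes moved from 0.10 to 0.27. Relative to that median, SBSS1 stood at 0.28 under both scalings. Neighbours in the order of its group means did not differ beyond their spread, with exact permutation p from 0.292 to 0.848.

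agpS1 held 9.07 ± 3.61 CPM before pretreatment, with values from 4.65 through 7.92 to 15.2. After water it held 13.6 ± 2.71 CPM, from 10.3 through 13.3 to 17.8. After ethanol it held 12.0 ± 2.20 CPM, from 8.92 through 11.7 to 15.3. All 12 libraries taken after a pretreatment lay above the median of the 6 taken before it, and 3 of the 12 lay above all 6. The log2 change was 0.58 ± 0.26 over the water pretreatment and 0.40 ± 0.26 over the ethanol pretreatment, and 0.49 ± 0.23 averaged over both. None passed the test, with adjusted p of 0.283, 0.518 and 0.256 by edgeR. In the averaged comparison 5.73% of all genes were called, and in the ethanol comparison alone 3.77%.

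After water and freezing agpS1 ran from 11.1 through 23.8 to 33.2 CPM, mean 22.4 ± 8.29. In this group 4 of the 6 libraries lay above all 6 water libraries, while replicates 1 and 4, at 11.1 and 14.6 CPM, lay within their range. After ethanol and freezing it ran from 10.7 through 16.4 to 21.1 CPM, mean 16.3 ± 4.33, and 3 of the 6 lay above all 6 ethanol libraries. Taken singly, neither comparison passed the test. The log2 change was 0.72 ± 0.26 after water (adjusted p = 0.0694 by edgeR, where 11.1% of genes were called) and 0.44 ± 0.26 after ethanol (adjusted p = 0.333, where 12.3% were called). The water comparison passed in DESeq2, at 0.0492, with libraries scaled to their totals only, at 0.0173, and without water and freezing replicate 1 or 4, at 0.0220 and 0.0443.

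Averaged over both pretreatments, the rise of agpS1 with freezing passed the test. The mean went from 12.8 ± 2.49 CPM in 12 unfrozen libraries with a pretreatment to 19.4 ± 7.05 CPM in 12 frozen ones. Of the frozen libraries, 9 lay above the unfrozen median and 6 above the unfrozen maximum of 17.8 CPM. The log2 change was 0.58 ± 0.18, a 1.495-fold rise with a 95% interval from 1.16 to 1.93, and the adjusted p was 0.0187 by edgeR. In this comparison 21.1% of all genes were called, 1537 higher and 1446 lower, so a call was common. With libraries scaled to their totals only there were 2536 higher and 988 lower.

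The size of the rise relative to the median of all genes was 0.48 on the log2 scale with TMM and 0.49 with library totals only. The call held in all 24 fits that left out 1 compared library, with adjusted p from 0.00615 to 0.0491, the highest without water and freezing replicate 3. It was lost when ethanol replicate 4, water replicate 3 and water and freezing replicate 6, the libraries that lay apart on the components, were left out together, a choice made after seeing the data, at 0.0507 with a log2 change of 0.55. The average uses the same libraries as the single comparisons and is no separate evidence. Because no hour of sampling is given, an effect of freezing on this gene of the daily starch cycle cannot be told apart from one of the hour.

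**Figure D2:**
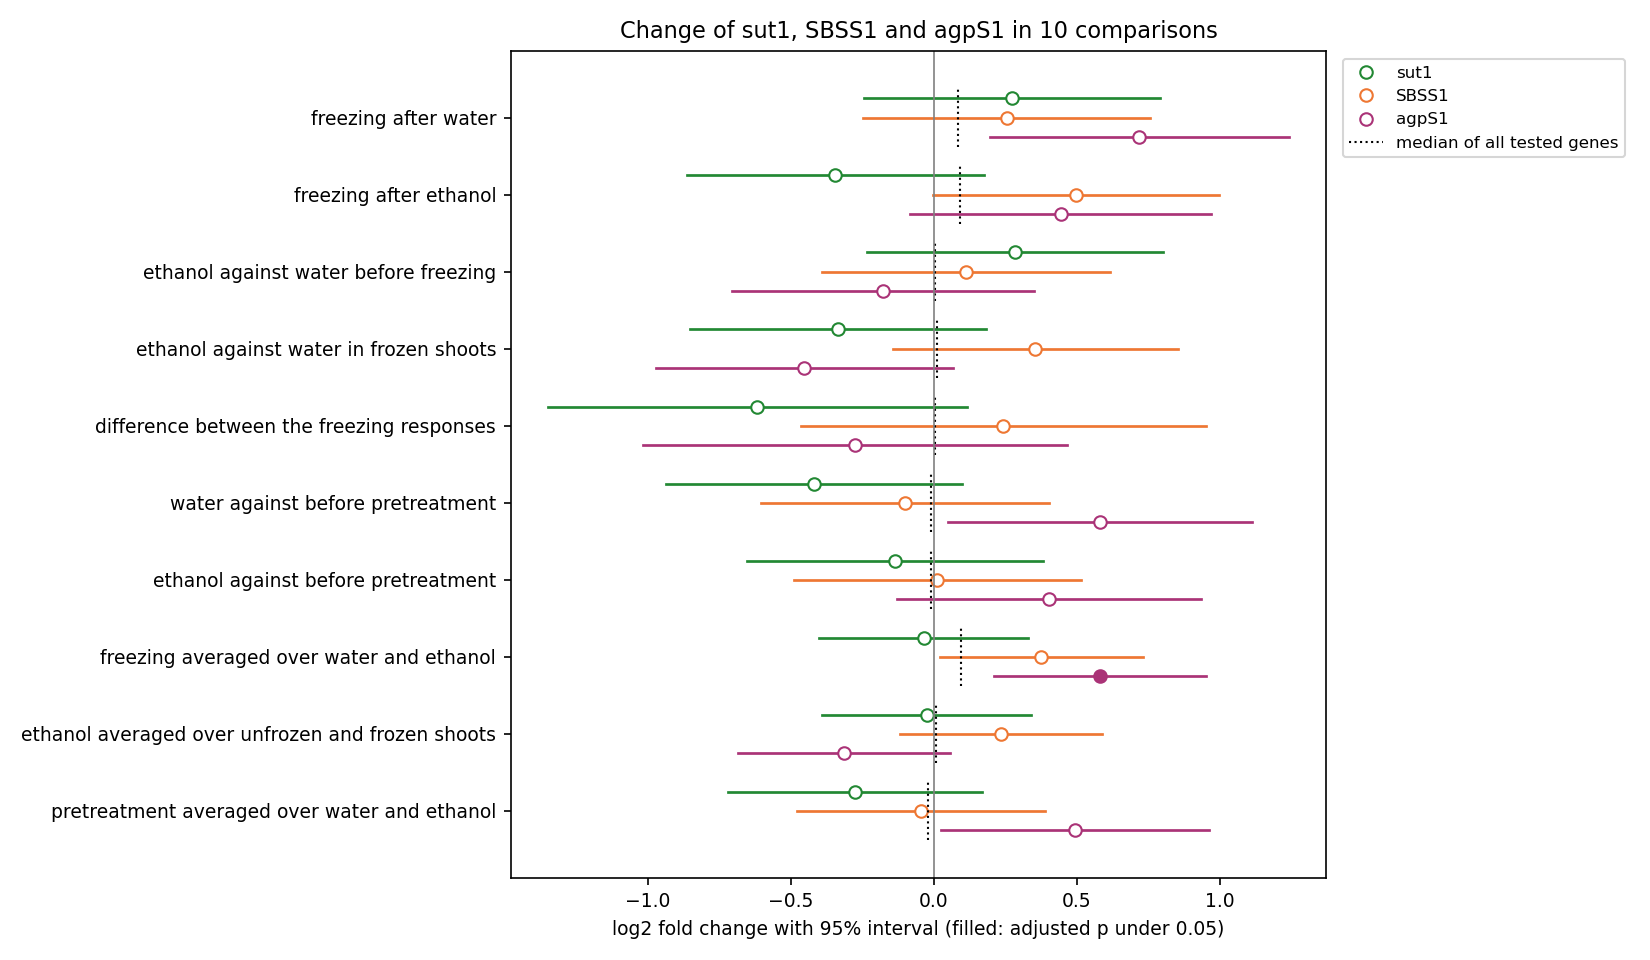
Log2 fold change of sut1, SBSS1 and agpS1 (horizontal axis) with 95% intervals in 10 comparisons (vertical axis) from 1 edgeR fit of 30 libraries. Filled points have an adjusted p under 0.05, and dotted marks are the median of all 14128 tested genes. The averaged freezing change of agpS1, at 0.58, is the 1 filled point.

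**Figure D3:**
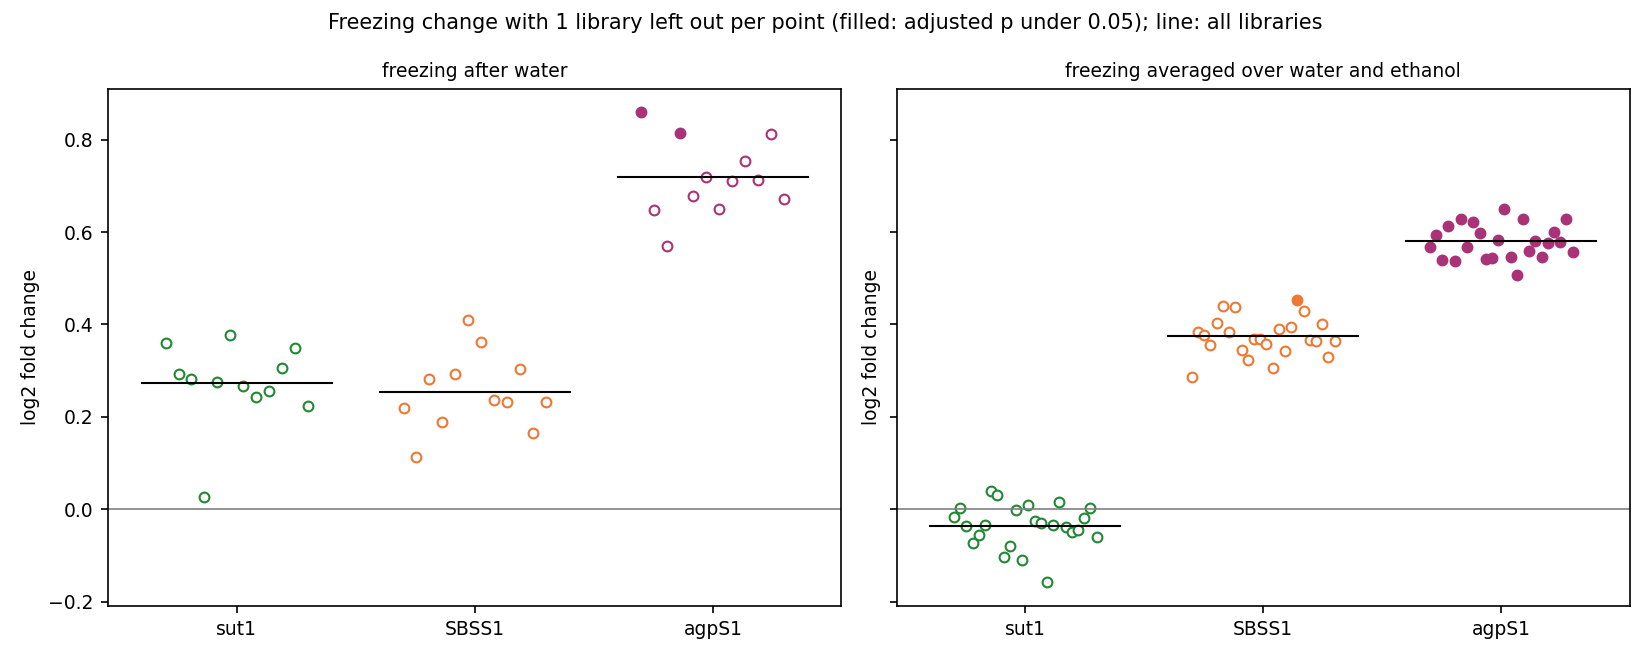
Log2 fold change with freezing (vertical axis) of each gene when 1 compared library is left out per point, after water (left, 12 fits) and averaged over both pretreatments (right, 24 fits). Filled points have an adjusted p under 0.05 and lines are fits of all libraries. All 24 agpS1 points on the right are filled, and the low sut1 point on the left, at 0.03, is the fit without water and freezing replicate 4.

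Ethanol itself moved none of the 3 genes past the test. Before freezing, the log2 changes against water were 0.28 ± 0.26 for sut1, 0.11 ± 0.25 for SBSS1 and -0.18 ± 0.26 for agpS1, each with an adjusted p of 1 by edgeR, in a comparison that called 0.00708% of all genes. In frozen shoots they were -0.33 ± 0.25, 0.35 ± 0.25 and -0.45 ± 0.26, again with adjusted p of 1, where 0.106% of genes were called. The sut1 value was -0.09 without water and freezing replicate 4. That of SBSS1 was 0.17 without ethanol and freezing replicate 1 and 0.20 without water and freezing replicate 6. For agpS1 in frozen shoots the interval ran from -0.97 to 0.07, or 0.510 to 1.05 times the level after water. Of the 6 frozen water libraries, 4 lay above all 6 frozen ethanol libraries for agpS1, and 1 of the latter lay below all of the former.

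The averaged ethanol change was -0.03 ± 0.18 for sut1, 0.23 ± 0.17 for SBSS1 and -0.32 ± 0.18 for agpS1, with adjusted p of 1 by edgeR and 0.177% of all genes called. In the test of whether the freezing response differed by pretreatment, agpS1 gave -0.28 ± 0.36 and SBSS1 0.24 ± 0.35, with ranges of -0.42 to -0.13 and 0.06 to 0.38 when 1 library was left out. There edgeR called 0 of 14128 genes and DESeq2 called 0. By edgeR, 406 genes had an unadjusted p under 0.05, a share below the 0.05 that p-values without any difference would give.

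The order of the agpS1 means was before pretreatment, ethanol, water, ethanol and freezing, and water and freezing. Neighbours in this order did not differ beyond their spread, with exact permutation p of 0.0844, 0.288, 0.247 and 0.199. Its ends did differ before adjustment. The 2-sided exact permutation test of water and freezing against before pretreatment gave p = 0.00866, where 5 of the 6 earlier libraries lay below all 6 frozen ones. That of ethanol and freezing against before pretreatment gave an exact p of 0.0152. Adjusted over the 10 pairs of groups, both exact p values were 0.0758. No pair of groups was free of overlap for any of the 3 genes. Across all genes, groups were free of overlap for 6.14% with freezing after water, 7.67% with freezing after ethanol, 2.72% over the water pretreatment and 2.83% over the ethanol pretreatment. For ethanol against water the shares were 0.297% before freezing and 0.283% in frozen shoots.

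No wide list of sucrose and starch genes was searched. The names looked up in the RefSeq table were those of the 3 genes above and of SBSPS1 (Bevul.8G169000). SBSPS1 encodes a sucrose-phosphate synthase, an enzyme of sucrose synthesis. It lies on chromosome 8 from 54971363 to 54978579, plus strand, and the RefSeq model reaches 452 bp past the table's model at the 3′ end. Reads beyond the end of the table's model are not in its count. That count was near the limit of detection, with 0 to 52 reads per library and 0 reads in 5 of the 30. At 0 reads, a floor of 3 counts allows up to 0.290 to 0.880 CPM. Group means ran from 0.714 ± 0.982 CPM after ethanol to 2.12 ± 1.45 CPM after ethanol and freezing. It did not pass any comparison by edgeR. Its averaged freezing change was 0.54 ± 0.74 (adjusted p = 0.693), with an interval from -0.97 to 2.05, which includes the change of agpS1 and no change. Counting error at its mean of 14.1 reads is 26.6%, while the fitted coefficient of variation between libraries was 1.12, against 0.312 for agpS1.

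Ratios of read counts within a library do not depend on how libraries are scaled. The ratio of agpS1 to sut1 had a median of 0.294 before pretreatment, from 0.243 to 0.549. It was 0.723 after water, from 0.543 to 0.849, so that 5 of the 6 water libraries lay above all 6 earlier ones. After ethanol it was 0.488, from 0.309 to 1.16, and 2 of the 6 lay above all earlier ones. In frozen shoots the medians were 1.18 after water and 1.05 after ethanol, and 10 of the 12 libraries lay above all 6 taken before pretreatment. A ratio moves with either gene, and the ratios were not tested.

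The ratio of SBSS1 to sut1 was highest after ethanol and freezing, with a median of 2.01 and values from 1.15 to 3.89. In the other groups its median lay between 1.03 and 1.41. There, 4 of the 6 ethanol and freezing libraries lay above all 6 taken before pretreatment. The ratio of agpS1 to SBSS1 had its highest median, 0.761, after water and freezing, where it also spread most, from 0.319 to 1.68. After ethanol and freezing it was 0.446, close to the 0.387 of the libraries before pretreatment.

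**Figure D4:**
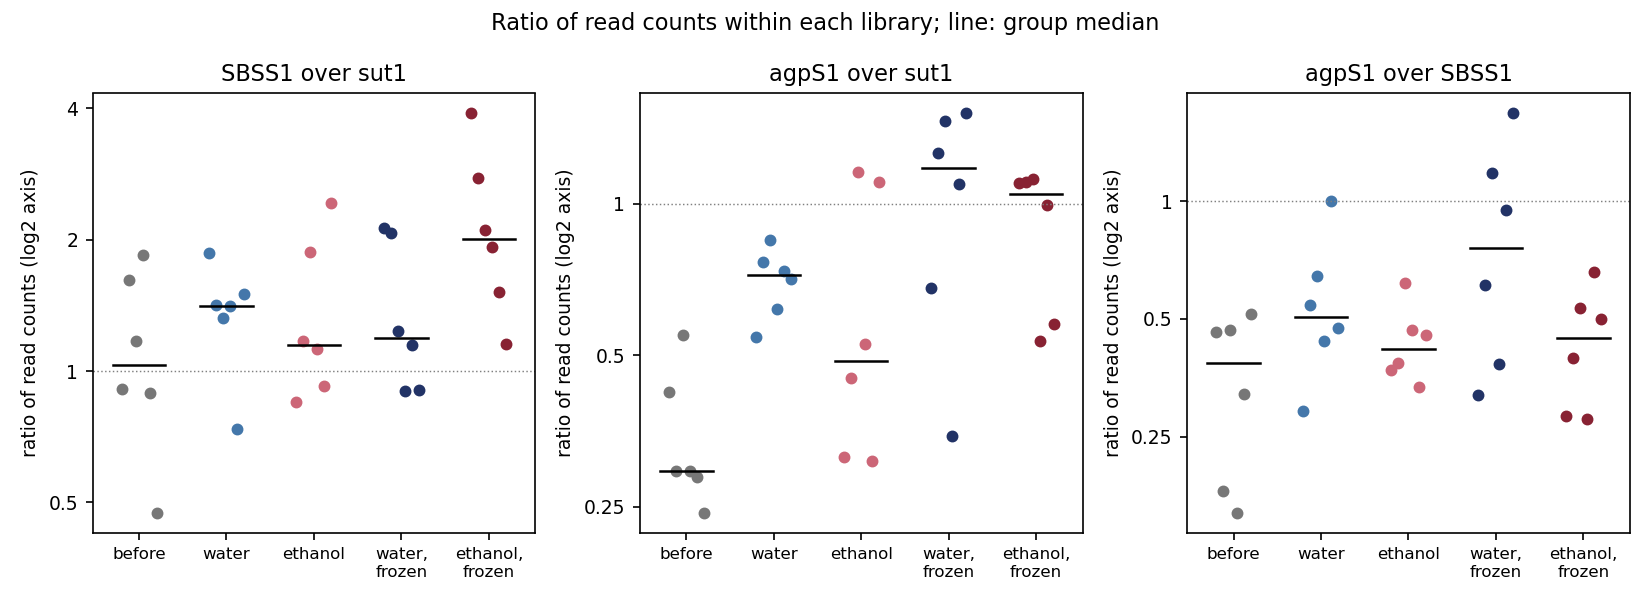
Ratio of read counts between pairs of the 3 genes within each library (vertical axis, log2 scale) by group (horizontal axis), with points for libraries in replicate order and lines for group medians. The agpS1 to sut1 ratio climbs from a median of 0.294 before pretreatment to 1.18 after water and freezing, and the SBSS1 to sut1 ratio has its highest median, 2.01, after ethanol and freezing.

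With group means removed, Pearson's r of log2 CPM over the 30 libraries was 0.20 for sut1 and SBSS1, 0.10 for sut1 and agpS1 and -0.02 for SBSS1 and agpS1. Spearman's rho was 0.11, 0.07 and -0.13. Within single groups of 6 the values ran in both directions, and some were larger. SBSS1 and agpS1 had r = -0.81 (rho = -0.77) after water and 0.41 after ethanol and freezing. For sut1 and agpS1, r was 0.64 before pretreatment, 0.61 after water and -0.22 after ethanol. For sut1 and SBSS1 it was 0.66 after ethanol and -0.37 before pretreatment. These are descriptions without a test, and the 2 values of a point share a library and its depth. In the water and freezing group, sut1 was highest in replicate 4, SBSS1 in replicate 2 and agpS1 in replicate 3.

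The 3 genes most like each one were those with the highest Pearson's r of log2 CPM over the 30 libraries among 5405 others with a mean of at least 10 CPM. For agpS1 they were Bevul.2G031600 on chromosome 2 (r = 0.72), Bevul.9G071900 on chromosome 9 (0.70) and Bevul.4G218900 on chromosome 4 (0.70), none of which carries a name in the RefSeq table. Bevul.2G031600 went from 3.29 ± 1.37 CPM before pretreatment to 7.99 ± 3.08 after water and 19.5 ± 9.87 after water and freezing. Bevul.9G071900 went from 6.48 ± 2.22 to 9.28 ± 1.77 and 36.6 ± 25.7 CPM, with a wide spread in the last group. It held 6.94 ± 3.32 CPM after ethanol and 12.9 ± 7.23 CPM after ethanol and freezing. Bevul.4G218900 went from 104.5 ± 7.51 to 156.4 ± 9.82 and 218.5 ± 35.1 CPM over the same groups. Its groups were tighter than those of agpS1, and its averaged freezing change was 0.50 ± 0.09 with an adjusted p of 3.63e-05 by edgeR. Because it was picked for its likeness to agpS1 in these libraries, its rise is no separate evidence for that of agpS1. With group means removed, r with agpS1 fell to 0.32, 0.44 and 0.18.

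For SBSS1 the most alike genes were Bevul.5G119200 on chromosome 5 (r = 0.74), Bevul.7G049900 on chromosome 7 (0.66) and Bevul.3G232100 on chromosome 3 (0.65). With group means removed, r with SBSS1 was 0.68, 0.63 and 0.58. The genes were picked by r over the same libraries, so these values are no separate check. Bevul.5G119200, an abundant transcript, went from 1501 ± 209.8 CPM in the water group to 2125 ± 333.3 CPM in the ethanol and freezing group. Bevul.7G049900 went from 25.6 ± 8.63 CPM in the water group to 56.6 ± 30.4 CPM in the ethanol and freezing group. These groups had the lowest and highest means of SBSS1 and differ in both ethanol and freezing. Bevul.7G049900 held 20.3 ± 5.14 CPM after ethanol. Its averaged freezing change, 1.07 ± 0.22, passed the test (adjusted p = 0.000308 by edgeR), while that of SBSS1 did not. For sut1 the r values were lower, 0.58 for Bevul.6G170800 on chromosome 6, 0.50 for Bevul.7G163100 on chromosome 7 and 0.49 for Bevul.4G157000 on chromosome 4. All these r are the highest of 5405 values and are high by selection. Whether they exceed what chance would give was not tested. By Spearman's rho in place of Pearson's r, 1 of the 3 genes was shared for each of sut1, SBSS1 and agpS1.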

How the data were processed

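The submitters' processing notes name HISAT2, featureCounts, Trimmomatic, bcl2fastq and DESeq2. Their versions are not stated there. The notes name TAIR10, while the file headers give chromosomes of EL10.2. The authors deposited raw read counts per gene, which were used for all tests, and a signal table in which the deposited values are the counts divided by 1 size factor per library (relative spread at most 9.72e-10), used only for that check. Counting by strand is not stated.

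Counts of 30 libraries were fitted in R 4.3.3 with edgeR 4.0.16 as 5 group means with no covariate, after filterByExpr, which kept 14128 of 21587 genes with 99.9% of reads, and TMM scaling. Contrasts were tested on 2 sides by the quasi-likelihood test with Benjamini-Hochberg adjustment over all tested genes and called under 0.05. Each SE is the absolute log2 change divided by the square root of F. Exact permutation tests used all 924 splits on log2 CPM with a prior count of 2 in Python 3.11.15 with numpy 2.4.6. The code was tested on simulated counts. DESeq2 1.42.0 and other settings were alternatives. The labels do not say that a replicate number marks shared material, so no replicate block was used in the reported fit.

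The genes, lists and comparisons were chosen with earlier results of these data known. Named genes are the 3 genes, their 3 most alike genes and SBSPS1, which was chosen by name. Lists by protein likeness and by product description, and promoter motifs, were not analysed here. Intervals for counts and floors cover counting error only.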

Additional observations from a re-analysis of the deposited data

Results flagged for a closer look

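Of the 20 groups of 6 libraries examined (sut1, SBSS1, agpS1 and SBSPS1 in each of 5 groups), 1 had a library far from the others by Dixon's test, and chance gives about 1 in 20. It was sut1 in water and freezing replicate 4, at 42.2 CPM, with the next library at 23.2 CPM. The gap was 0.689 of the range of the group, above the critical value for 6 libraries. In the same library SBSS1 stood at 37.97 CPM and agpS1 at 14.6 CPM, both within the range of their group.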

How the results depend on the processing

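Across 33 results of sut1, SBSS1 and agpS1 there were 822 values under other settings. Of these 811 stayed on the same side of the threshold, 10 newly fell under it (3 of them exact permutation tests with an unadjusted p), 1 no longer passed, and 27 that did not pass changed sign. The averaged freezing change of agpS1 kept its call except without the 3 libraries that lay apart (0.55, adjusted p = 0.0507 by edgeR), with 0.51 to 0.65 when 1 library was left out. The agpS1 change with freezing after water passed with library totals only (0.90, adjusted p = 0.0173) and in DESeq2 (0.70, adjusted p = 0.0492). It ran from 0.57 to 0.86 with 1 library left out, where 2 of 12 fits passed, with adjusted p from 0.0220 to 0.217 by edgeR. SBSS1 passed with library totals only, for averaged freezing (0.55, adjusted p = 0.0204) and for any difference among the groups (adjusted p = 0.0437). Its averaged change ran from 0.29 to 0.45 with 1 library left out, where 1 of 24 fits passed. Exact permutation tests gave 0.64 for agpS1 with freezing after water (unadjusted p = 0.0433), and over the water pretreatment -0.40 for sut1 (0.0498) and 0.64 for agpS1 (0.0303). Adjusted over the 10 pairs of groups these exact p were 0.0866, 0.249 and 0.0758, and none passed. Of 500 counts of called genes under other settings 456 were within 1.5 times the reported one. The others include, with library totals only, 1249 genes higher with freezing after water against 709 and 1365 after ethanol against 817. For ethanol against water in frozen shoots, the counts over all other settings were 1 to 12 higher against 3 and 3 to 24 lower against 12. The cause was not tested. Same replicate numbers were not taken as a pairing, since the labels name none. Of 60 same-numbered pairs 5 had a correlation of deviations over 0.1, with a range from -0.175 to 0.134. In 34 of 120 cases a library correlated best with its own number, where 20 would be the number if the numbers carried nothing, a hint from the data and not the design. With the replicate block the averaged freezing change was 0.54 for agpS1 (adjusted p = 0.0184 by edgeR), 0.32 for SBSS1 (0.131) and -0.03 for sut1 (0.942). No call of the 3 genes changed, and 1502 genes were higher and 1427 lower. The SE of the averaged SBSS1 change was 0.14 with the block and 0.17 without it. Comparisons by protein relatives at 30% or 60% identity, product descriptions and promoter motifs were not run. At the lowest count of agpS1, 38 reads, counting error is 16.2%.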
